A study of Mus musculus with 9 samples.

Results

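Hyaluronan is a long, unsulfated glycosaminoglycan, and its metabolism in mouse skin was followed here through 10 genes that make it, break it down or bind it: Has1, Has2, Has3, Hyal1, Hyal2, Cemip, Cd44, Hmmr, Tnfaip6 and Itih5. Members were chosen by gene symbol, and a row of the expression table carried that symbol for 9 of the 10, out of 19505 named genes in all. Hyal1 had no row under its name and is not described further. The mice were C57BL/6J, 8 weeks of age, with the hair of the back removed, and every sample received 5% imiquimod cream, an agonist of a Toll-like receptor that produces a psoriasis-like dermatitis, each day for 7 days. In the 5 stretch samples (titled IMQ+F) a glued plastic device had been elongated by 10 mm on the first day, and the 4 no-stretch samples (titled IMQ+N) were not stretched. The protocol text does not say whether the no-stretch skin also carried the glued device, so the effects of traction and of the device cannot be told apart. No skin without imiquimod was analysed here. Separate mice per sample are not stated in the labels, and the p-values therefore reflect only how these samples scatter, some of which could be technical.

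In skin, hyaluronan fills the space between fibroblasts of the dermis and between keratinocytes of the epidermis, where it holds water and changes in amount and chain length during wounding and inflammation. Hyaluronan synthases sit in the plasma membrane and extrude the growing chain while they join 2 nucleotide sugars. Hyaluronidases and the depolymerising protein encoded by Cemip cut the chain, cell-surface receptors such as CD44 bind it, and the secreted protein encoded by Tnfaip6 moves protein heavy chains onto it. Heavy chains of this kind belong to the inter-alpha-trypsin inhibitor family, of which Itih5 is a member.

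Promoter sequences from RefSeq on the mouse build GRCm38.p6 were matched by symbol for 8 of the 10 members. Has2 and Has3 had no sequence under their symbols and were not searched. Each sequence ran from 250 bases before to 50 bases after the transcription start. The 4 printed here belong to Itih5, the only member past the test threshold, to Cemip, the member of largest positive change, and to Has1 and Tnfaip6, which varied together from array to array. They lie at chr2:10153293-10153592 (plus strand), chr7:84086456-84086755 (minus strand), chr17:17855139-17855438 (minus strand) and chr2:52037863-52038162 (plus strand), and each is written 5′ to 3′ along its gene. Capitals mark matches, on either strand, to 7 searched motifs, those named AP-1, CRE, TATA box, CCAAT box, STAT, TEAD and NF-kB.
Itih5 promoter: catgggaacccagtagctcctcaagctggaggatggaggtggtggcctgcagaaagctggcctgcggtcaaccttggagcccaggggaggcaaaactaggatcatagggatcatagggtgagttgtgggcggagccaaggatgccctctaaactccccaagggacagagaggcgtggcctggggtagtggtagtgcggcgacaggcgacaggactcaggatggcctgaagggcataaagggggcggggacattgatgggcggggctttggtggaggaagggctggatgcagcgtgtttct
Cemip promoter: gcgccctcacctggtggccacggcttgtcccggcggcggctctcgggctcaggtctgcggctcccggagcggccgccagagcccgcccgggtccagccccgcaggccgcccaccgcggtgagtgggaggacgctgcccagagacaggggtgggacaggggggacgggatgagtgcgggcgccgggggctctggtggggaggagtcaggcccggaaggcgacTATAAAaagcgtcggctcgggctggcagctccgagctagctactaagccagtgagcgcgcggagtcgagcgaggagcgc
Has1 promoter: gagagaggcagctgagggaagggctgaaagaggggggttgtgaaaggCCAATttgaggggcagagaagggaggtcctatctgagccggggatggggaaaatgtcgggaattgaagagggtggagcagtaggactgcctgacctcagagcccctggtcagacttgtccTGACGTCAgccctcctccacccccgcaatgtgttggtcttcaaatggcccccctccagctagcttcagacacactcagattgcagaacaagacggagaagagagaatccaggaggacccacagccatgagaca
Tnfaip6 promoter: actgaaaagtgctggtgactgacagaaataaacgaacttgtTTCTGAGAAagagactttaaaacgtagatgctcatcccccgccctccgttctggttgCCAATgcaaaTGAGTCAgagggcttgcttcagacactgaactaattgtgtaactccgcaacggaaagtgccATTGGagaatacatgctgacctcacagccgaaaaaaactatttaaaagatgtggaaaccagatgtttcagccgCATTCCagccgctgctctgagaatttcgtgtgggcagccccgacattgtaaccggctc
The Itih5 window held no match to any of the 7 motifs. The Cemip window held a match to the TATA box, searched as TATAAA, from 29 to 24 bases before the start, a motif found in 13.6% of all 32851 promoter windows of this length. The Has1 window held a match to the CRE, searched as TGACGTCA, from 83 to 76 bases before the start, which 1.79% of all windows hold, and a match to the CCAAT box, searched as those letters, which 37.4% hold. The Tnfaip6 window held a match to AP-1, searched as TGANTCA, from 142 to 136 bases before the start, which 7.81% of all windows hold. It also held a match to STAT, searched as TTCNNNGAA and found in 8.30% of windows, and 2 CCAAT box matches. Its match to TEAD, searched as GGAATG and found in 14.7% of windows, lay just before the start. Outside the printed windows, Hmmr had 5 CCAAT box matches, Hyal2 an NF-kB match (4.51% of all windows) that overlaps a TEAD match by 1 base, and Cd44 none of the 7. A match is a description of the letters only.

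The arrays gave log2 values for 22206 features, with array medians between 5.81 and 5.99, and precision is limited by how few arrays there are. The array of no-stretch replicate 3 stood somewhat apart, with a median correlation of 0.9749 with the other arrays across genes, against 0.980 to 0.987 for the other 8, so values without it are given below where they matter. The defining genes of skin were bright: over all arrays Krt14, a keratin of basal keratinocytes, averaged 19.28, Krt10, a keratin of differentiating keratinocytes, 19.63 and Col3a1, a collagen of fibroblasts, 17.83 on the log2 scale. Skeletal muscle markers were present as well, with a 7-gene mean between 13.80 and 15.84 in the stretch arrays and between 14.72 and 15.48 in the no-stretch arrays. Stretch replicate 1 was the lowest, at -1.27 relative to the no-stretch mean, against 0.13 to 0.77 in the other stretch arrays. In whole skin, fewer cells of a type and less RNA per cell cannot be told apart.

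Stretch moved 1 member past the test: Itih5 was 4.36-fold lower. Has2, Has3 and Cemip had positive changes of 1.89-fold, 2.09-fold and 3.0-fold, none past the threshold, and Has1, Hyal2, Cd44, Hmmr and Tnfaip6 had changes whose intervals included 0. The test was limma's moderated test, two-sided, with Benjamini-Hochberg adjustment over all 19505 genes at 0.05; it called 48 genes in all (0.246%), 16 higher (0.0820%) and 32 lower (0.164%). At an unadjusted p under 0.05 there were 4 of 9 members, 3 higher and 1 lower, where 13.0% of all genes reached that level, 6.92% higher and 6.07% lower. The groups did not overlap for 3 members, Has2 and Has3 higher and Itih5 lower, against 4.54% of all genes, 2.38% higher and 2.15% lower. The members' median log2 change was 0.16, beside -0.003 for all genes.

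**Figure D1:**
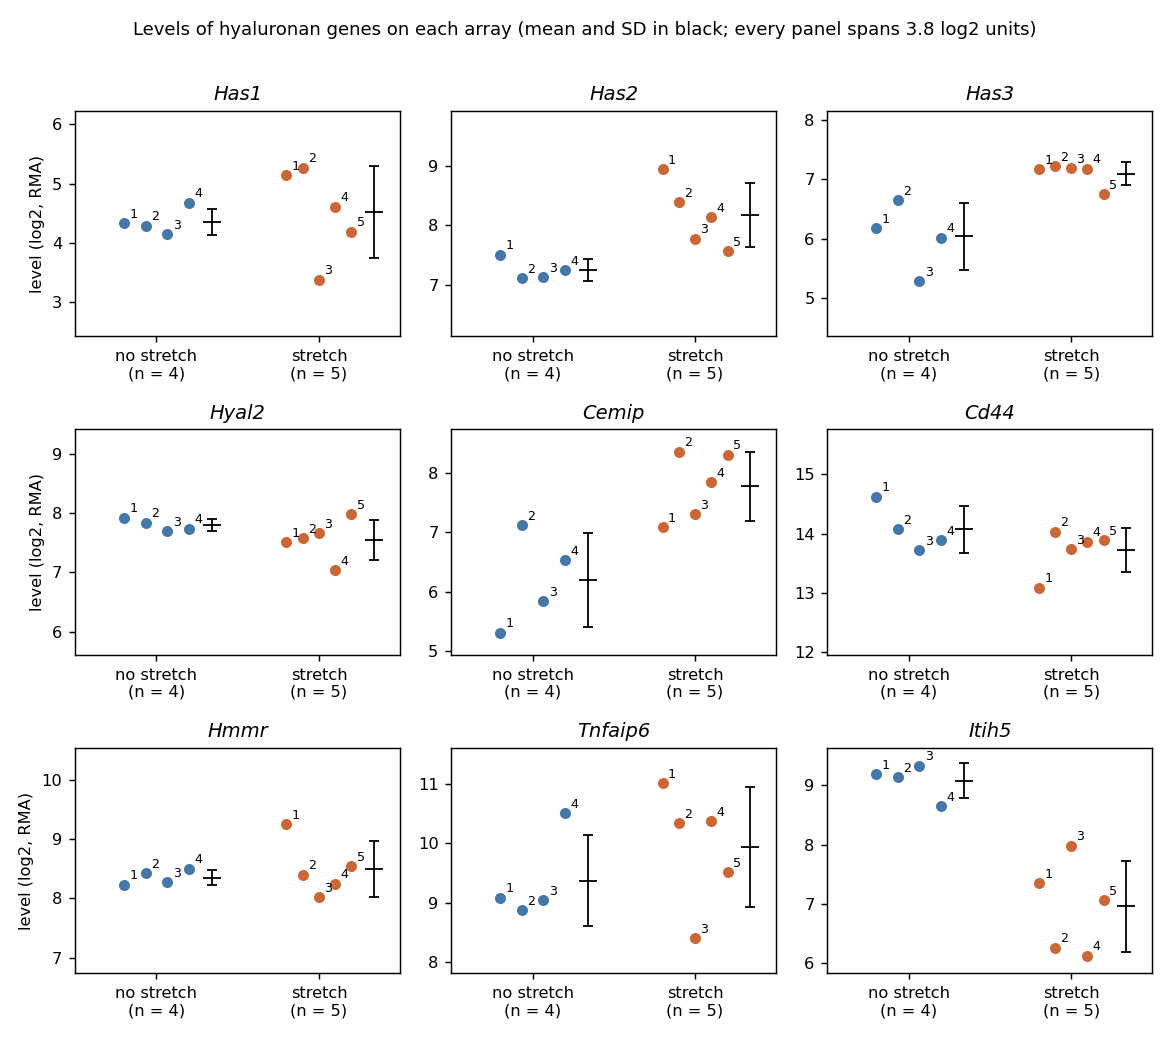
Log2 level (vertical axis) of the 9 measured members on each array, in the no-stretch (blue, n = 4) and stretch (orange, n = 5) groups; small digits are replicate numbers and black marks the mean and SD. Itih5 lies at 6.13 to 7.98 with stretch and at 8.65 to 9.33 without, and Has2 and Has3 lie above every no-stretch array in all 5 stretch arrays.

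Synthesis came first in the order of roles. Has2, the synthase that is essential for embryonic development and is the main one in dermal fibroblasts, was at 8.95, 8.39, 7.78, 8.14 and 7.57 in stretch replicates 1 to 5 and at 7.51, 7.11, 7.13 and 7.25 in no-stretch replicates 1 to 4 on the log2 scale. All 5 stretch arrays lay above all 4 no-stretch arrays, although stretch replicate 5 exceeded no-stretch replicate 1 only narrowly, and the stretch arrays were the more widely spread. The means were 8.17 ± 0.54 (SD, n = 5) and 7.25 ± 0.18 (SD, n = 4), which differ by 0.92 on the log2 scale (standard error 0.26, 95% confidence interval 0.36 to 1.48, limma adjusted p = 0.16).

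Has3, a synthase of the epidermis, was at 7.17, 7.22, 7.19, 7.18 and 6.75 with stretch and at 6.18, 6.65, 5.29 and 6.02 without. Here the tight group was the stretched one: 4 of its arrays were nearly equal and replicate 5 was lower, while the no-stretch arrays were spread widely, with replicate 3 the lowest. The means were 7.10 ± 0.20 (SD, n = 5) and 6.04 ± 0.56 (SD, n = 4), which differ by 1.07 on the log2 scale (standard error 0.24, 95% confidence interval 0.53 to 1.60, limma adjusted p = 0.097). When the array that stood apart, no-stretch replicate 3, was omitted, the change was 0.82 with a limma adjusted p of 0.21. The basal keratinocyte markers, beside which Has3 is given because it is an epidermal gene, had a median log2 change of 0.40, with 0 of 8 past the threshold and 3 at an unadjusted p under 0.05. Their mean level ranged from 12.82 to 13.67 with stretch and from 12.76 to 13.36 without, and their part in the Has3 values was not tested.

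Has1, the third synthase, was at 5.14, 5.27, 3.38, 4.61 and 4.19 with stretch and at 4.33, 4.29, 4.15 and 4.68 without. The stretch arrays straddled the no-stretch range, with 2 above it and 1, replicate 3, below it. The log2 change was 0.16 (95% confidence interval -0.58 to 0.89, limma adjusted p = 0.88), and its sign turned without stretch replicate 1 (-0.0001) or 2 (-0.033). Its mean of 4.45 lay below the array medians, and whether it was above background was not assessed, since detection calls were not used here.

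Whether the synthases changed unequally was tested directly, by an exact permutation of the per-array difference between 2 genes over all 126 splits of the arrays (two-sided, smallest possible p 0.0079). The change of Has1 was smaller than that of Has2 by 0.76 on the log2 scale (exact p = 0.024, and 0.048 after Benjamini-Hochberg over the 4 pairs tested), a call that was lost after quantile normalization of the arrays (adjusted exact p = 0.095). With any 1 array left out the difference stayed between -0.90 and -0.58, with an adjusted exact p of 0.057 to 0.14. With 1 no-stretch array left out, a single pair at the smallest possible p would reach only 0.071 after adjustment. With 1 stretch array left out, 4 arrays face 4, each split has a mirror image of equal size, and that limit is higher. Pairs sharing the smallest p could still pass without 1 no-stretch array. Has1 and Has2 did not pass there, at an adjusted exact p of 0.071 to 0.14. Against Has3 the change of Has1 was smaller by 0.91 (exact p = 0.079, adjusted 0.11), which missed the threshold. Has1 averaged 4.45 over all arrays, against 7.76 for Has2 and 6.63 for Has3, so a change in it could be compressed. The part of such compression in these differences was not tested. Has2 and Has3 differed in their changes by 0.15 (exact p = 0.66, adjusted 0.66), and the sign of that difference turned without no-stretch replicate 3.

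Breakdown genes came next. Cemip, which encodes a hyaluronan-binding protein needed for hyaluronan depolymerisation by skin fibroblasts, was at 7.09, 8.36, 7.31, 7.85 and 8.31 with stretch and at 5.31, 7.12, 5.84 and 6.53 without. The groups met at a single point, where stretch replicate 1 lay just under no-stretch replicate 2; the other 4 stretch arrays were above every no-stretch array. The means were 7.78 ± 0.58 (SD, n = 5) and 6.20 ± 0.79 (SD, n = 4), which differ by 1.59 on the log2 scale (standard error 0.38, 95% confidence interval 0.76 to 2.41, limma adjusted p = 0.11).

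Hyal2, a hyaluronidase anchored at the cell surface that cuts long chains into fragments, was at 7.51, 7.58, 7.66, 7.04 and 7.98 with stretch and at 7.92, 7.84, 7.69 and 7.74 without. Of the stretch arrays 4 lay below all no-stretch arrays, and replicate 5 lay above them all. The log2 change was -0.24 (95% confidence interval -0.66 to 0.17, limma adjusted p = 0.62), so the interval leaves room for a fall of 0.66 and a rise of 0.17. The changes of the 2 breakdown genes were unequal: that of Hyal2 was below that of Cemip by 1.83 on the log2 scale, with an exact permutation p of 0.0079, the smallest that 126 splits can give, and 0.032 after adjustment over the 4 pairs. With any 1 array left out the difference stayed between -2.12 and -1.49, with an adjusted exact p of 0.057 to 0.11 under the same limit.

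Neither receptor gene passed. Cd44, the main cell-surface receptor of hyaluronan on keratinocytes, fibroblasts and leukocytes, was at 13.09, 14.03, 13.74, 13.86 and 13.89 with stretch and at 14.62, 14.07, 13.72 and 13.89 without. The groups overlapped between 13.72 and 14.03, and the array farthest from the rest on each side was replicate 1, the lowest with stretch and the highest without. The log2 change was -0.35 (95% confidence interval -0.87 to 0.16, limma adjusted p = 0.56). CD44 exists in many splice forms, which a single gene-level value does not separate.

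Hmmr, which encodes a hyaluronan receptor that also works at the mitotic spindle, was at 9.25, 8.40, 8.02, 8.25 and 8.54 with stretch and at 8.23, 8.42, 8.27 and 8.50 without. Only stretch replicate 1 stood well above the no-stretch range, and without it the change went from 0.14 to -0.052 (limma adjusted p = 0.84 and 0.93). The same array had the highest mean of 12 mitosis genes, 0.78 above the no-stretch mean, while stretch replicate 3, which was lowest for Hmmr, was at -0.23. The 12 mitosis genes had log2 changes between -0.07 and 1.19, with a median of 0.26. Of these genes 0 passed and 3, named next, had an unadjusted p under 0.05. Cdk1, the mitotic kinase, had a log2 change of 1.19, Birc5 (survivin) of 0.95 and Bub1, a spindle checkpoint kinase, of 0.80 (limma adjusted p = 0.16, 0.21 and 0.29).

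Among the binding proteins, Tnfaip6 encodes TSG-6, an inflammation-induced protein that transfers heavy chains to hyaluronan. It was at 11.01, 10.34, 8.40, 10.37 and 9.51 with stretch and at 9.08, 8.87, 9.04 and 10.50 without. One array on each side crossed over: no-stretch replicate 4 was higher than all stretch arrays but replicate 1, and stretch replicate 3 was the lowest of all 9. The means were 9.93 ± 1.01 (SD, n = 5) and 9.37 ± 0.76 (SD, n = 4), which differ by 0.56 on the log2 scale (95% confidence interval -0.52 to 1.63, limma adjusted p = 0.67). Leaving out no-stretch replicate 4 gave a change of 0.93, leaving out stretch replicate 3 one of 0.94, and leaving out stretch replicate 1 one of 0.28 (limma adjusted p = 0.45, 0.32 and 0.84).

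Itih5, which encodes a secreted heavy chain of the inter-alpha-trypsin inhibitor family, was at 7.35, 6.26, 7.98, 6.13 and 7.06 with stretch and at 9.19, 9.14, 9.33 and 8.65 without. All 5 stretch arrays lay below all 4 no-stretch arrays, with a gap between stretch replicate 3 and no-stretch replicate 4. The means were 6.96 ± 0.77 (SD, n = 5) and 9.08 ± 0.30 (SD, n = 4), a difference of -2.13 on the log2 scale (standard error 0.35, 95% confidence interval -2.88 to -1.37, limma adjusted p = 0.033). The change stayed between -2.38 and -1.92 when any 1 array was left out, but the adjusted p passed in only 3 of these 9 fits. It was 0.092 without stretch replicate 2, 0.066 without stretch replicate 4 and 0.076 without stretch replicate 5. It was 0.13 without no-stretch replicate 1, 0.091 without replicate 2 and 0.13 without replicate 3.

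**Figure D2:**
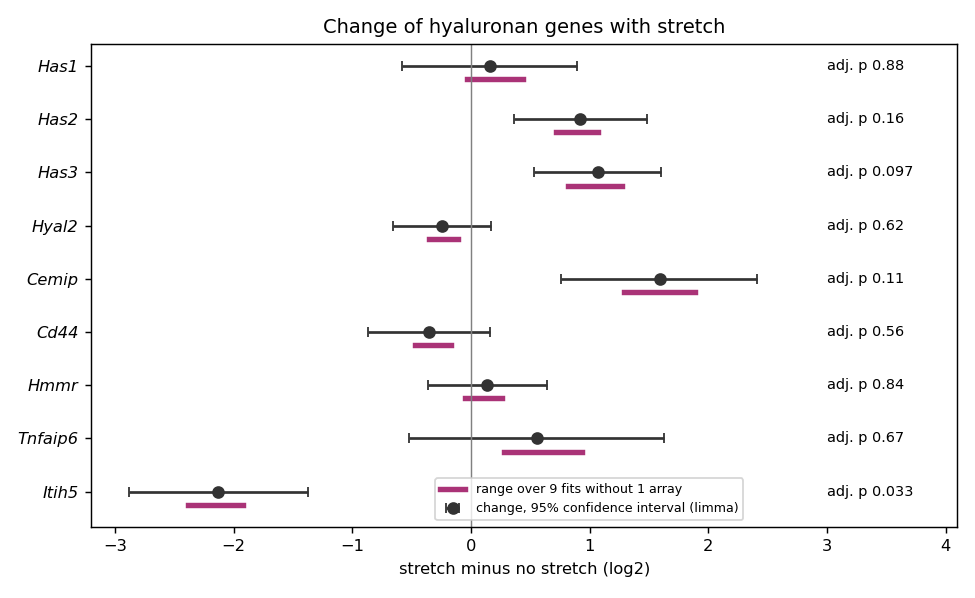
Stretch minus no stretch on the log2 scale (horizontal axis) for each of the 9 measured members; points and bars are the limma change with its 95% confidence interval, and thick lines span the values of the 9 fits that left out 1 array. Only the adjusted p of Itih5 (0.033) is under 0.05, and the intervals of Has2, Has3 and Cemip lie above 0.

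Markers of dermal fibroblasts had changes of the same sign as Itih5. Of the 8 measured, all had negative changes with a median of -0.85, 2 passed the threshold and 6 had an unadjusted p under 0.05. Dpt, the matrix protein dermatopontin, had a log2 change of -2.30 and Cd34, a surface antigen of dermal fibroblasts and hair follicle stem cells, of -1.60 (limma adjusted p = 0.025 and 0.0046). Their mean level was 14.46 to 14.77 in the stretch arrays and 15.53 to 15.80 in the no-stretch arrays, ranges that do not overlap. Relative to the no-stretch mean, Itih5 was at -1.73, -2.82, -1.10, -2.95 and -2.02 in stretch replicates 1 to 5, and the fibroblast mean was at -0.86, -0.93, -1.17, -1.18 and -1.06. The fibroblast mean thus varied little between the stretch arrays, whereas Itih5 was much lower in replicates 2 and 4 than in replicate 3. Single genes behind that mean differed. Among the stretch arrays Dpt was lowest in replicate 4 (12.25) and highest in replicate 3 (14.1), as Itih5 was, while Cd34 stayed between 12.06 and 12.34. Adipocyte markers had a median log2 change of -0.75, with 6 of 7 negative, 0 past the threshold and a mean level of 8.87 to 9.74 with stretch and 9.77 to 10.49 without. The mean of 6 sebaceous gland genes was set beside Itih5 after its values were seen. Relative to the no-stretch mean it was at -2.05, -2.02, -1.06, -2.56 and -1.77 in stretch replicates 1 to 5. In no-stretch replicates 1 to 4 it was at 0.36, 0.28, 0.17 and -0.81, and Itih5 at 0.11, 0.06, 0.25 and -0.43. Among the stretch arrays both were highest in replicate 3 and lowest in replicate 4. The part of any of these cell types in the Itih5 change was not tested.

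The stretch arrays could also be read by their inflammatory gene levels. Il1b, the gene of interleukin-1 beta, was at 12.72, 15.52, 11.68, 14.93 and 13.73 in stretch replicates 1 to 5 and at 8.87, 10.79, 9.01 and 11.34 in no-stretch replicates 1 to 4. Replicates 2 and 4, which had the lowest Itih5, had the highest Il1b in the stretched group, and replicate 3, with the highest Itih5, had the lowest. In the no-stretch group replicate 4 likewise had the lowest Itih5 and the highest Il1b. This ordering was noticed in the data and was not tested.

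Members of different roles varied together within the groups. After each group mean was subtracted, Has1 and Tnfaip6 had a Pearson r of 0.88 and a Spearman rho of 0.83 over the 9 arrays, Has1 and Has2 had 0.74 and 0.83, and Has2 and Tnfaip6 had 0.67 and 0.75. Of the 36 pairs of members 6 had an r of at least 0.6, and the other 3 joined Hmmr to Tnfaip6 (r = 0.68, rho = 0.42), Has2 (0.65 and 0.25) and Has1 (0.64 and 0.37). Negative values of similar size were those of Itih5 with Has1 (r = -0.68, rho = -0.50) and Tnfaip6 (-0.63 and -0.42) and of Cd44 with Hmmr (-0.64 and -0.60). In Has1, Has2 and Tnfaip6 stretch replicate 1 or 2 was the highest of its group and replicate 3 or 5 the lowest. Has3 did not share this pattern, with r = 0.16 to Has1, 0.24 to Has2 and 0.02 to Tnfaip6, nor did Cemip, with r = 0.18, -0.43 and 0.07 to the same genes. These values describe 9 arrays that share few strongly deviating ones, chiefly stretch replicates 1 and 3, and no test was made of them.

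**Figure D3:**
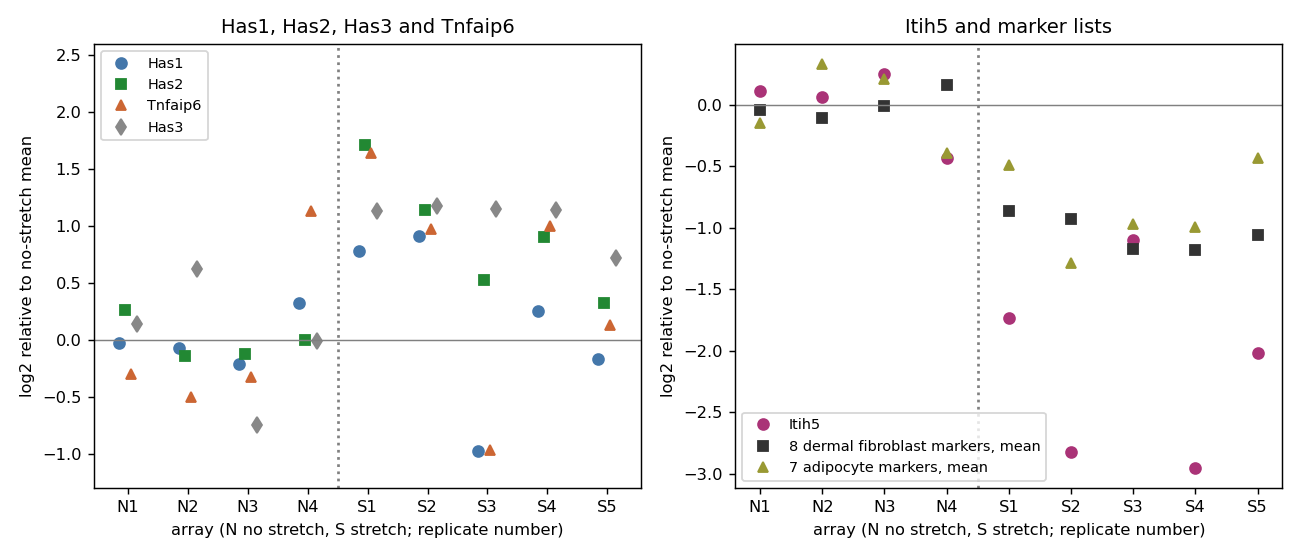
Log2 values relative to the no-stretch mean (vertical axis) on each array (N, no stretch; S, stretch; with the replicate number), for Has1, Has2, Has3 and Tnfaip6 at left and for Itih5 with the means of 8 dermal fibroblast and 7 adipocyte markers at right. Has1 and Tnfaip6 drop together to -0.98 and -0.97 in S3 while Has3 stays at 1.15, and Itih5 reaches -2.95 in S4 where the fibroblast mean is at -1.18.

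The genes whose pattern over the arrays was most like each member were sought among 19504 others, by the Pearson r of values with the group means subtracted. The closest gene had an r between 0.96 and 0.98, depending on the member, a range that 9 arrays reach for every member. For Itih5 these were Aadac (r = 0.98, rho = 0.95), Dlx4 (0.97 and 0.95) and Slc18a3 (0.97 and 0.73), for Tnfaip6 Espl1 (0.98 and 0.93), for Has2 Adamts3 (0.98 and 0.97) and for Cemip H2bc14 (0.96 and 0.90). Of the 27 genes so listed, 0 were members or belonged to the pathway lists, and 0 passed the limma test at an adjusted p of 0.05.

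The rest of the hyaluronan pathway and its known inducers were described by lists of 72 further genes, of which 67 were measured. None of the 67 passed limma's test over all genes (smallest adjusted p 0.070), and their median log2 change was 0.11. At an unadjusted p under 0.05, 12 had a positive and 2 a negative change (20.9% together, against 13.0% of all genes). Of these 14 genes, 7 came from the 15 measured inducers of Has2 or Tnfaip6, mostly cytokines and growth factors, which are described below. Among the genes that supply the nucleotide sugars, 8 of 10 changes were positive with a median of 0.25. Gfpt1, the entry enzyme of the hexosamine pathway, had a log2 change of 0.53, its paralogue Gfpt2 of -0.44 and Hk2, a hexokinase, of 0.68 (limma adjusted p = 0.24, 0.28 and 0.27). Gfpt1 was higher in all 5 stretch arrays than in all 4 others.

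Other breakdown genes showed 0 of 9 at an unadjusted p under 0.05, with a median log2 change of 0.03. Several of them averaged between 2.2 and 5.61 over all arrays, below the array medians, so a change in those could be compressed. Hexa, a lysosomal hexosaminidase subunit, had a change of 0.71 and Cemip2, a paralogue of Cemip, of 0.66 (limma adjusted p = 0.42 and 0.44). Other receptors had a median of 0.13 over 7 genes. Tlr2 and Tlr4, Toll-like receptors reported to sense hyaluronan fragments, had changes of 0.95 and 0.96 (limma adjusted p = 0.22 and 0.29), and Lyve1, the hyaluronan receptor of lymphatic endothelium, of -0.10 (95% confidence interval -1.12 to 0.92).

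The proteoglycans and link proteins that bind hyaluronan had changes between -0.35 and 0.05 and a median of -0.027, which became 0.006 when each array was centred on its median. Vcan, the large proteoglycan versican, had a change of -0.33 (95% confidence interval -1.11 to 0.44). It averaged 11.66 over all arrays, whereas the other genes of this list averaged 2.74 to 5.0. Those levels lie below the array medians, so the small changes there could be compressed. In the heavy-chain group Itih1 to Itih4 had changes between -0.12 and 0.21, against -2.13 for Itih5. The group also holds Ambp, the bikunin precursor of the same complex, at 0.46, and Ptx3, a pentraxin that binds TSG-6, at 0.44 (limma adjusted p = 0.38 and 0.55). Itih1 to Itih4 and Ambp averaged 5.23, 4.15, 3.08, 3.89 and 3.11 over all arrays, below the array medians, so a change in them could be compressed.

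Partners and sheddases of CD44 had a median log2 change of 0.14 over 10 genes. Mmp9, a gelatinase that docks on CD44, had a change of 1.74 (limma adjusted p = 0.070) and was higher in all stretch arrays than in all no-stretch arrays. Adam10, which sheds CD44, had a change of 0.37 and Mmp14 of -0.47 (limma adjusted p = 0.42 and 0.44). Of the 15 measured genes known to induce Has2 or Tnfaip6, 13 had positive changes, with a median of 0.53, 6 positive and 1 negative at an unadjusted p under 0.05, and 0 past the threshold. Il1b had a log2 change of 3.71, Il6 of 4.19 and Hbegf, an epidermal growth factor receptor ligand, of 1.75 (limma adjusted p = 0.070, 0.076 and 0.099). The negative gene was Tgfb2, at -0.62 (limma adjusted p = 0.27), with all 5 stretch arrays below all 4 no-stretch arrays.

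**Figure D4:**
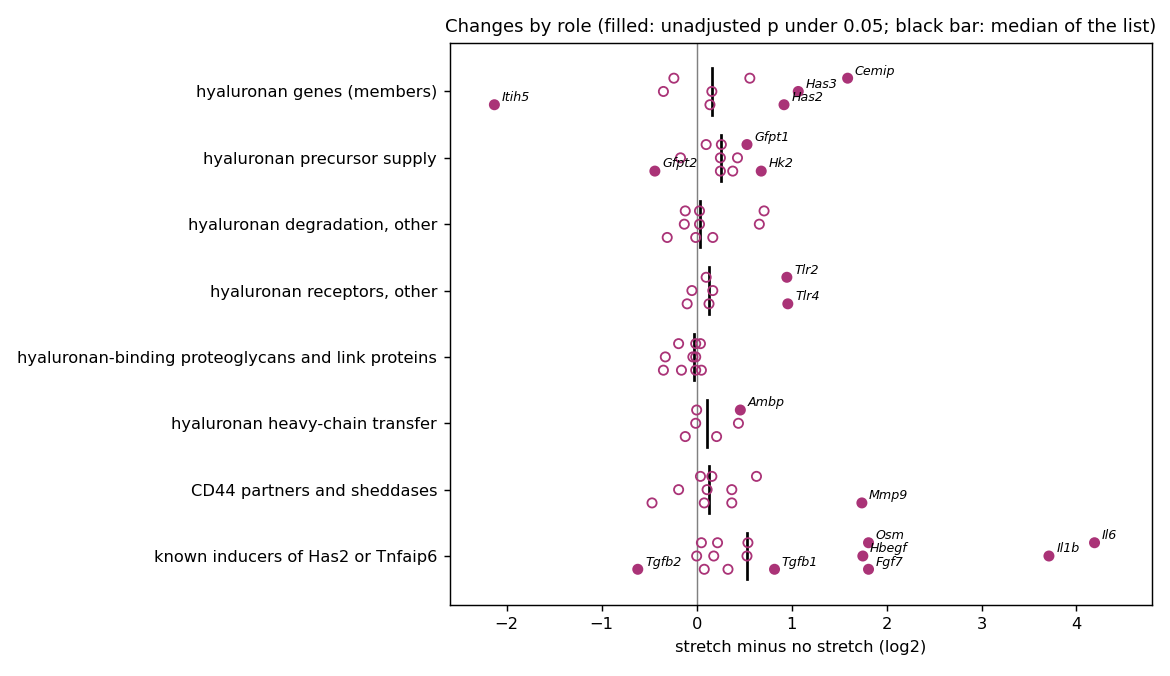
Stretch minus no stretch on the log2 scale (horizontal axis) for the 9 members and for the 67 measured genes of the pathway lists by role; each point is a gene, filled where its unadjusted p is under 0.05, and black bars are list medians. The inducer list has the highest median (0.53), and Itih5 at -2.13 lies lowest of all genes plotted.

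Leukocyte lists differed in sign. Of 8 neutrophil markers all had positive changes with a median of 1.43, 0 past the threshold and 5 at an unadjusted p under 0.05, and their mean level was 10.50 to 12.35 with stretch and 8.75 to 9.94 without. Retnlg, a resistin-like gene of neutrophils, had a log2 change of 4.54 and Clec4d, a myeloid lectin receptor, of 3.96 (limma adjusted p = 0.081 and 0.086). Of 8 monocyte and macrophage markers all had positive changes with a median of 0.54, at mean levels of 11.74 to 12.98 and 11.48 to 12.55, and Cd14 had a change of 2.26 (limma adjusted p = 0.13). The T cell markers had a median of -0.32 with all 5 negative, and the mast cell markers a median of -0.15 with 4 of 6 negative, both with 0 past the threshold. Differentiated keratinocyte markers had a median of -0.79 with all 8 negative and 0 past the threshold, and activated keratinocyte markers a median of 0.53 with 6 of 7 positive. The part of any of these cells in the values of Has2, Has3, Cemip or Tnfaip6 was not tested.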

How the data were processed

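Total RNA (6 ug, biotin-labelled cRNA) was measured on Affymetrix arrays in 5 stretch and 4 no-stretch samples, grouped by title. The deposited table held log2 values per feature; RMA and Transcriptome Analysis Console are named for it in the submitters' processing notes, without versions, and the sources used here give no build or filter. RMA compresses low values, which understates the changes of dim genes. Symbols came from the platform table: 19572 of 22206 features had 1 symbol and 2634 are unnamed here. Where several features named a gene (55 genes, no member), the brightest was used. R 4.3.3 and its package limma 3.58.1 (functions lmFit and eBayes, without covariates) gave the changes, after a test on simulated data. Of 6 planned pairs of members, the 2 with Hyal1 were not run. Genes named were all members, up to 3 of smallest p per list and, per member, the 3 nearest by pattern. Lyve1, Itih1, Itih3, Itih4, Krt14, Krt10, Col3a1, Tgfb2, Tyr, Mitf and Pdpn were named after their values were seen. Marker lists of T cells, lymphatic and blood endothelium, hair follicle, melanocyte, mast cell and sebaceous gland were also computed. Members, lists and tests were chosen with earlier results of these data known.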

Additional observations from a re-analysis of the deposited data

Results flagged for a closer look

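Among 18 groups of member values (9 genes in 2 groups), 2 held an array far from the others, where chance gives about 1 in 20. Has3 was at 6.75 in stretch replicate 5, against 7.17 to 7.22 in the other 4 stretch arrays, a gap of 0.89 of the group's range. Tnfaip6 was at 10.50 in no-stretch replicate 4, against 8.87 to 9.08 in the other 3 no-stretch arrays, a gap of 0.87 of the range. No-stretch replicate 4 also had the highest Il1b (11.34) and Il6 (8.52) of its group.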

How the results depend on the processing

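All 9 members kept their direction under quantile normalization, median centring, omission of dim genes, averaging of features, testing of all features, another variance model, array weights and the replicate block, and Itih5 passed in these 8 fits (limma adjusted p 0.014 to 0.042). Genes called numbered 105 without dim genes and 157 with array weights, against 48, and 2 to 195 when 1 array was left out. The low end, 2, was reached without no-stretch replicate 3, the array that stood apart, and without stretch replicate 2. With 1 array left out, called members numbered 0 to 1 and called pathway genes 0 to 4. Without dim genes 1 pathway gene (Il1b) was called, and with array weights 3 (Mmp9, Il1b and Hbegf). Of the same-numbered samples only those of replicate 4 deviated together (r = 0.34, against -0.06, -0.02 and 0.06 for replicates 1 to 3), so the numbers were not taken to pair the samples; with the replicate block, where stretch replicate 5 has no partner and carries no weight, 221 genes, 2 members (Itih5 and Cemip, the latter with limma adjusted p = 0.016, against 0.075 to 0.31 in the other alternatives) and 5 pathway genes were called. Without stretch replicate 1 the log2 change of Has1 was -0.0001 and that of Hmmr -0.052, without stretch replicate 2 that of Has1 was -0.033, and without no-stretch replicate 3 the change of Has2 minus that of Has3 was 0.062; over all fits with 1 array left out these ranged from -0.033 to 0.439 for Has1, from -0.052 to 0.255 for Hmmr and from -0.398 to 0.062 for Has2 minus Has3, and the cause was not tested. Unequal change was called for 2 of 4 pairs, for 1 after quantile normalization and for 0 in each fit with 1 array left out. Without 1 no-stretch array, a single pair at the smallest possible p (0.018) would have an adjusted exact p of 0.071. Without 1 stretch array that limit is higher, because each split has a mirror image of equal size. The number of arrays and the compression of dim genes limit what could be detected.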

Other observations

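Skin appendage genes gave the largest negative medians among the marker lists. The 6 sebaceous gland genes had a median log2 change of -2.17, and the lipid synthesis gene Fasn passed at -2.25 (limma adjusted p = 0.045). The 7 hair follicle genes had a median of -1.06, with Lhx2, which encodes a regulator in stem cells of the follicle, past the threshold at -2.28 (limma adjusted p = 0.029). The 6 melanocyte genes had a median of -1.11 with 5 negative, and Dct and Pmel, both of pigment formation, passed at -2.25 and -1.40 (limma adjusted p = 0.031 and 0.026). In the same list Tyr had a change of -0.35 and Mitf of 0.35 (limma adjusted p = 0.42 and 0.72). The lymphatic endothelium list had a median of -0.19, with 5 of 6 negative and only 1 gene, Ccl21a, at an unadjusted p under 0.05. Ccl21a, a chemokine of lymphatic vessels with near-identical copies that 1 feature may not separate, passed the threshold at -1.35 (limma adjusted p = 0.045). Pdpn, of the same list, had a change of 0.73 (limma adjusted p = 0.48). The blood endothelium list had a median of 0.66 with 0 of 6 past the threshold.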
